A study of Mus musculus with 7 samples.

Results

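The genes of the hexosamine pathway and of O-GlcNAc cycling were taken from the deposited table by their symbols: Gfpt1, Gfpt2, Gnpnat1, Pgm3, Uap1, Uap1l1, Nagk, Ogt, Mgea5 and Gne. All 10 were found among the 23930 genes of the table, each read by a single amplicon of the panel. Bulk RNA came from 3 libraries of normocapnia, NC1 to NC3, and 4 of hypercapnia, numbered HC1 to HC4. The cells were Pax7-GFP-positive cells sorted from the hind leg muscles of tamoxifen-treated reporter mice, and the comparison asks how elevated CO2 changes their transcripts. The methods describe the room air controls of this line as matched for age, sex and genotype. Mice entered normocapnia (room air) or hypercapnia at 12 weeks of age and were collected 4 weeks later, at 16 weeks. According to the methods, hypercapnia was 10% CO2, and cardiotoxin, which destroys myofibers and sets off repair, had been injected into the leg muscles of both groups 3 days before collection. The labels name neither the injury nor a culture step. The title of the deposited table carries a time in hours that the methods give for plated cells in a proliferation assay. Neither the labels nor the methods tie that time to these libraries. In this line Cre recombinase is driven from the Pax7 locus, so GFP marks cells that expressed Pax7 while tamoxifen was given, together with their progeny. The labels give the strain of NC1 as C57BL/6, with a last number that rises by 1 from library to library. They do not say whether each library is 1 mouse, so p-values measure the spread between these libraries.

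The hexosamine pathway diverts a small part of the glucose that enters a cell into UDP-GlcNAc, the activated sugar from which glycoproteins, glycolipids, hyaluronan and sialic acid are built. Gfpt1 and Gfpt2 join a sugar phosphate from glycolysis with nitrogen from glutamine, Gnpnat1 adds the acetyl group, Pgm3 moves the phosphate and Uap1 attaches the uridine nucleotide. Nagk returns GlcNAc released by lysosomes to the same route. Within the cell, the transferase Ogt places single GlcNAc residues on serines and threonines of nuclear and cytosolic proteins, and the hydrolase encoded by Mgea5, now named Oga, removes them. Because the supply of glucose, glutamine, acetyl groups and uridine all feed UDP-GlcNAc, the modification is known as a readout of nutrient state in muscle and elsewhere.

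Values are in RPM, the reads of a gene scaled to a fixed total of panel reads per library. Where the values of a group are listed, they follow the order of the library numbers. A gene's RPM depends on how well its amplicon is copied, so levels compare libraries within a gene and not genes with each other. Library totals ran from 14527445 to 23388710 reads, and the 10 genes rested on between 17 reads (Gfpt2 in NC3) and 2847 reads (Ogt in NC2). The sorted cells were mixed: the sum of 7 satellite cell markers ran from 75.9 to 1428 RPM in normocapnia and from 205 to 668 RPM in hypercapnia, and that of 9 macrophage markers from 10760 to 33220 RPM and from 17670 to 22330 RPM, most of it Lyz2. None of the 7 satellite cell, 7 neutrophil, 5 lymphocyte, 5 endothelial, 5 fibro-adipogenic and 6 myofiber markers was called by the rule given next. Group values therefore describe a mixed population, in which fewer cells of a type and less RNA per cell cannot be told apart. NC1 stood apart in its cell mix, with the highest sums of satellite cell markers (1428 RPM, against 75.9 to 668 RPM in the other libraries) and of myofiber markers (2996 RPM, against 135 to 1560 RPM). NC3 stood apart in scale, with the lowest median-of-ratios size factor (0.686, against 0.954 to 1.25 in the other libraries). It stood apart in its cell mix as well, with the highest sum of macrophage markers (33220 RPM, against 10760 to 22330 RPM in the other libraries). Its sum of myofiber markers was the lowest (135 RPM, against 283 to 2996 RPM). Mice of both sexes were used according to the methods. Xist, the RNA of the inactive X chromosome, lay between 445 and 701 RPM in NC1, NC2, HC1 and HC2 and at 0.125 RPM or less in NC3, HC3 and HC4, while the Y-linked Ddx3y was at 0 in the former and between 103 and 206 RPM in the latter. The exposures were thus not balanced for sex, and values within the libraries with and without Xist are given where they bear on a gene.

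Differences were fitted with limma on log2(RPM + 1) over all 23930 genes, and fold changes are hypercapnia over normocapnia. The thresholds of the study were kept for calling a gene, a fold above 1.5 with p under 0.05 before adjustment. Of the 10 genes, 2 were called, Uap1l1 and Nagk, both higher in hypercapnia. At these thresholds 2.57% of all genes were called in either direction and 1.43% higher, and among genes averaging 10 RPM or more, as 9 of the 10 did, 5.54% in either direction, 3.07% higher and 2.47% lower. The same 2 genes were the only ones of the 10 whose groups did not overlap. Of genes averaging 10 RPM or more, 4.96% were higher in hypercapnia without overlap and 4.67% lower. By the same thresholds both were also called after quantile normalization, where 2.9% of all genes were called, Nagk alone in edgeR (6.03%), and neither after median-of-ratios scaling (2.56%). With p-values adjusted over the whole table (Benjamini-Hochberg), limma left 0 of the 10 (lowest adjusted p 0.877) and 0 of all genes, of which 1114 had p under 0.05 before adjustment. For whole reads the adjusted count was 0 in edgeR and 29 in DESeq2, none of them among the 10. The median log2 fold change of the 10 genes was -0.04, beside 0.02 over all genes and 0.161 over genes averaging 1 RPM or more, as all 10 did, with 4 values above 0 and 6 below. The plot of RPM by library shows the values behind these counts.

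**Figure D1:**
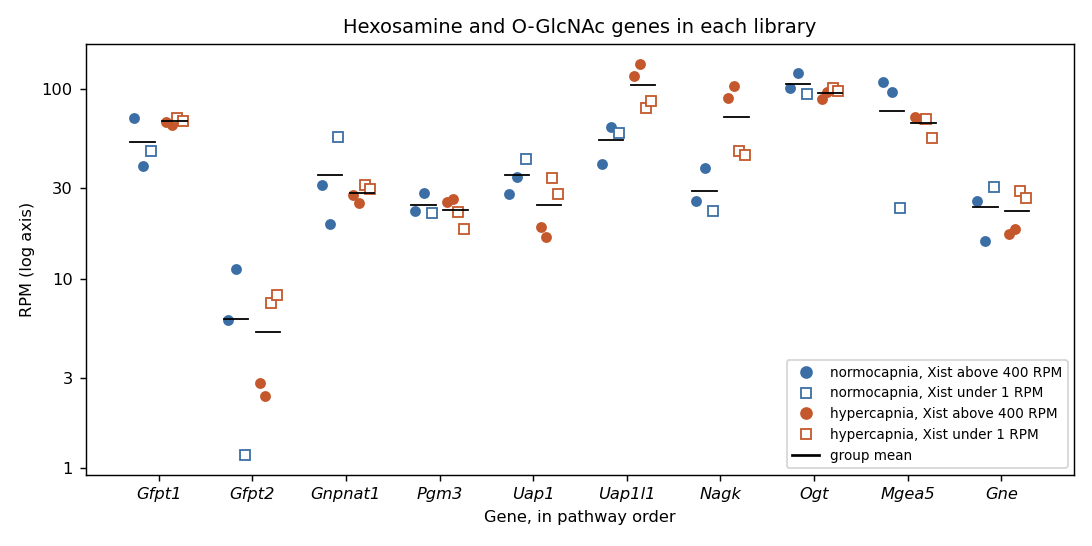
RPM of each of the 10 genes (log axis) in the 3 normocapnia and 4 hypercapnia libraries, with filled circles for libraries with Xist, open squares for those without and bars at the arithmetic group means. Hypercapnia lies above normocapnia in every library for Uap1l1 and Nagk, and the NC3 square stands low for Gfpt2 and Mgea5.

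Gfpt1, a form of the enzyme that commits sugar to the pathway, stood at 70.2, 39.3 and 47.1 RPM in normocapnia and at 67.2, 64.9, 70.4 and 67.9 RPM in hypercapnia. NC1 reached the hypercapnia level, and the other 2 normocapnia libraries lay below it. The hypercapnia libraries were close to each other (67.6 ± 2.28 RPM, SD, n = 4), while normocapnia spread more widely (52.2 ± 16.1 RPM, n = 3). The log2 fold change was 0.41 (95% interval -0.08 to 0.90; limma adjusted p 0.915), which did not pass the test. Gfpt1 was called higher in limma without NC1 (log2 fold change 0.64, SE 0.08, adjusted p 0.117), where 8.32% of all genes were called.

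Gfpt2, the second form of the same enzyme, rested on the fewest reads of the 10 and stood at 6.07, 11.2 and 1.17 RPM in normocapnia and at 2.83, 2.41, 7.44 and 8.19 RPM in hypercapnia. Levels spread 9.57-fold within normocapnia and 3.40-fold within hypercapnia, and the groups overlapped throughout (log2 fold change -0.02, 95% interval -1.82 to 1.78). Among libraries with Xist, Gfpt2 was lower in hypercapnia (log2 difference -1.36, 2 libraries against 2), and among those without it, higher (2.02, 2 libraries against NC3 alone). This difference between the 2 effects was -3.38 (SE 0.49; limma interaction term, adjusted p 0.0694), in a fit where 21.2% of all genes passed an unadjusted p of 0.05 and the single normocapnia library without Xist sets the second effect. The ratio of Gfpt2 to Gfpt1, which does not depend on library scaling, ran from 0.0248 to 0.285 in normocapnia and from 0.0372 to 0.121 in hypercapnia, and the groups overlapped. Its size also depends on the amplicons, so only its differences between libraries can be read.

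Gnpnat1, the acetyltransferase, stood at 31.3, 19.3 and 55.5 RPM in normocapnia and between 25.0 and 31.1 RPM in the 4 hypercapnia libraries. All hypercapnia values fell inside the normocapnia range (log2 fold change -0.19, 95% interval -1.06 to 0.68). Its sign rested on NC3, since without that library the log2 fold change was 0.19. Pgm3, the mutase of the next step, was among the steadiest of the 10, at 22.7, 28.1 and 22.2 RPM in normocapnia and 25.3, 26.3, 22.4 and 18.1 RPM in hypercapnia. Its range over all 7 libraries was 1.55-fold, and the interval of its difference (log2 fold change -0.08, 95% interval -0.47 to 0.31) lies within the fold threshold of 1.5 in both directions. Pgm3 and Ogt had the most similar profiles of any pair of the 10 over the 7 libraries (root-mean-square difference of centered log2 values 0.18).

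Uap1 and its sequence relative Uap1l1 had log2 fold changes of opposite sign, of which that of Uap1l1 passed the test. Uap1 makes UDP-GlcNAc, the end product of the pathway, and Uap1l1 is known by its similarity to Uap1. Uap1l1 stood at 40.01, 63.2 and 58.4 RPM in normocapnia and at 116, 136, 79.1 and 86.4 RPM in hypercapnia. Every hypercapnia library was above every normocapnia library (105 ± 26.5 RPM, n = 4, against 53.9 ± 12.3 RPM, n = 3; log2 fold change 0.94, SE 0.26, 95% interval 0.29 to 1.58, limma p 0.0129, adjusted p 0.877). The call held without each library in turn (log2 fold change 0.74 to 1.06), but not with median-of-ratios scaling (0.79, p 0.116 in limma), in edgeR (0.80, p 0.0791) or in DESeq2 (0.76, p 0.0964).

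Uap1 itself stood at 28.0, 34.3 and 42.9 RPM in normocapnia and at 18.7, 16.6, 34.1 and 28.0 RPM in hypercapnia. HC3 and HC4 lay within the normocapnia range and HC1 and HC2 below it, and the difference did not pass the test (log2 fold change -0.55, 95% interval -1.29 to 0.20; limma p 0.12). Levels also differed with Xist: in each exposure the libraries without Xist had the highest values, and hypercapnia lay below normocapnia without overlap both among libraries with Xist (log2 difference -0.78) and among those without (-0.46). Such a pattern in the lower direction was found in 10% of genes averaging 10 RPM or more. With Xist as a covariate limma called Uap1 lower (log2 fold change -0.68, SE 0.14, p 0.00583, adjusted p 0.31), beside Nagk and Uap1l1 as higher, where 5.5% of all genes were called. Uap1 was also called lower without HC3 (-0.72, limma p 0.0455), where 572 of 23930 genes were called, and in none of the other alternatives.

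The ratio of Uap1l1 to Uap1 combines these differences within each library and does not change with scaling. It was 1.43, 1.84 and 1.36 in normocapnia and 6.24, 8.20, 2.32 and 3.08 in hypercapnia. The groups did not overlap, and the mean log2 ratio was 0.61 ± 0.24 (SD, n = 3) in normocapnia and 2.13 ± 0.85 (n = 4) in hypercapnia, a difference of 1.52 given with no test because the pair was chosen with results of these libraries known. HC1 and HC2, both with Xist, had the highest ratios, and HC3 and HC4 stood between them and normocapnia.

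**Figure D2:**
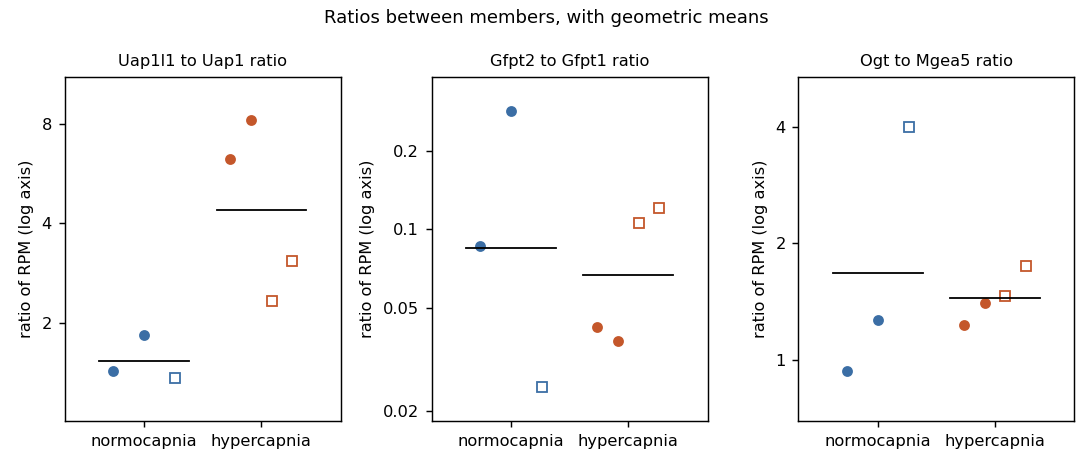
Ratios of RPM (log axes) for Uap1l1 to Uap1, Gfpt2 to Gfpt1 and Ogt to Mgea5 in each library, with bars at the geometric means of 3 normocapnia and 4 hypercapnia libraries, filled circles for libraries with Xist and open squares for those without. For Uap1l1 to Uap1 the hypercapnia ratios of 2.32 to 8.20 all lie above the normocapnia ratios of 1.36 to 1.84, whereas the groups overlap in the other panels.

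Nagk, the kinase that salvages GlcNAc, had the largest fold change of the 10: 25.8, 38.5 and 22.6 RPM in normocapnia against 89.5, 103, 46.8 and 44.7 RPM in hypercapnia. All hypercapnia libraries were above normocapnia, with HC1 and HC2 above HC3 and HC4 (71.0 ± 29.8 RPM, n = 4, against 29.0 ± 8.38 RPM, n = 3). Besides Xist, summed markers divided the hypercapnia libraries in the same way. Endothelial markers stood at 56.5 and 43.0 RPM in HC1 and HC2 and at 480.5 and 373.9 RPM in HC3 and HC4. In the same order, satellite cell markers stood at 216 and 205 RPM and at 668 and 484 RPM. Neutrophil markers stood at 49.8 and 13.1 RPM and at 176 and 116 RPM, and lymphocyte markers at 1.07 and 0.401 RPM and at 2.06 and 3.05 RPM. Fibro-adipogenic markers stood at 971 and 832 RPM and at 1690 and 2137 RPM, and myofiber markers at 475.5 and 283 RPM and at 855 and 1560 RPM. Macrophage markers went the other way, with higher sums in HC1 and HC2 (22330 and 18810 RPM) than in HC3 and HC4 (17670 and 18450 RPM). Their part in the levels of Nagk and in the ratio of Uap1l1 to Uap1 was not tested. The log2 fold change was 1.204 (SE 0.39, 95% interval 0.23 to 2.18, limma p 0.0237, adjusted p 0.915). Nagk was higher without overlap both among libraries with Xist (log2 difference 1.58) and among those without (0.98), as was Uap1l1 (1.31 and 0.50), a pattern seen in the higher direction in 11.9% of genes averaging 10 RPM or more. With Xist as a covariate the log2 fold change of Nagk was 1.37 (SE 0.22, limma p 0.00214, adjusted p 0.245). Its call held in edgeR (1.22, p 0.0244) and DESeq2 (1.18, p 0.0161) and was lost with median-of-ratios scaling (1.06, limma p 0.0665), without NC1 (1.14, p 0.071), without NC3 (1.05, p 0.0788) and without HC1 (1.06, p 0.0581).

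The promoters of Nagk and Uap1 are shown because Nagk, of salvage, was called higher, and Uap1, of final synthesis, was called lower with Xist as a covariate. They are the 250 bases before and 50 after the RefSeq start site on GRCm38.p6, a build taken from RefSeq, since the build used for the panel is not given in the sources used here. Promoters were found for 8 of the 10 genes, not for Uap1l1 or Gnpnat1. Capitals mark matches on either strand to the GC box GGGCGG, bound by Sp1-type factors, and to TGACG, the core of cAMP response elements.
Nagk, chr6:83794750-83795049, plus strand: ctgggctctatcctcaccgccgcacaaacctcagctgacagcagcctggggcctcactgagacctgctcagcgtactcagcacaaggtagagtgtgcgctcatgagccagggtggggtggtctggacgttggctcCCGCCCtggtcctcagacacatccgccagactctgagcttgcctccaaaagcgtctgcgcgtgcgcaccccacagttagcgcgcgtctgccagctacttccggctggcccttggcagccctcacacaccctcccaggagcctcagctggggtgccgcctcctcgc
Uap1, chr1:170174915-170175214, minus strand: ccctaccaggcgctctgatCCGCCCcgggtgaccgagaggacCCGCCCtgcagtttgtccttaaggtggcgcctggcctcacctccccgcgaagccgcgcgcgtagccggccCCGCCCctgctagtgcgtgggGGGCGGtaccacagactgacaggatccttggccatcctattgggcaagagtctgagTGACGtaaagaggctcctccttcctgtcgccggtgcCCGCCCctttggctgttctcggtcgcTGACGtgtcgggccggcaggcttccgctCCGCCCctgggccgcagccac
The Nagk promoter holds 1 GC box and no TGACG, and that of Uap1 holds 6 GC boxes and TGACG at 2 places. The GC box was found in 35.7% of the 32851 promoters of this length and in 7 of the 8 genes, TGACG in 20.8% and in 1 of the 8, and the E-box CACGTG in 7.2% and in 0 of the 8. CCAAT was found in 37.4% of all promoters and in 4 of the 8, Uap1 among them. The motifs were chosen after the sequences of Uap1 and Nagk had been seen, and a match describes the letters of this window only.

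Genes with the most similar profile over the 7 libraries were sought among 8220 genes averaging 10 RPM or more. For Nagk these were Pik3ap1, Naglu and Aif1, with root-mean-square differences of 0.17 in centered log2 values, against a median of 0.855 over all candidates. Naglu removes GlcNAc from heparan sulfate in the lysosome, and stood at 24.1, 52.5 and 26.9 RPM in normocapnia and at 87.8, 118, 50.7 and 44.0 RPM in hypercapnia. Aif1, a calcium-binding protein known in macrophages, stood at 115, 127 and 67.5 RPM against 319, 343, 164 and 138 RPM. Among those closest to Uap1l1 were Scpep1 and Dhrs3 (0.12 each, against a median of 0.75). Of the 9 macrophage markers measured, Adgre1 alone was called, at 109, 149 and 70.5 RPM in normocapnia and 392, 429, 151 and 184 RPM in hypercapnia (log2 fold change 1.31, SE 0.49, limma adjusted p 0.915). The other 8 overlapped between the groups and were not called, 5 with log2 fold changes above 0 and 3 below (-0.33 for Cd163 to 0.75 for C1qc). Lyz2 ran from 8354 to 29108 RPM over the 7 libraries, Cd68 from 729 to 2185 RPM and C1qb from 158 to 1061 RPM, whereas C1qa was at 0.452 RPM or less. The part of such cells in the values of Nagk and Uap1l1 was not tested.

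**Figure D3:**
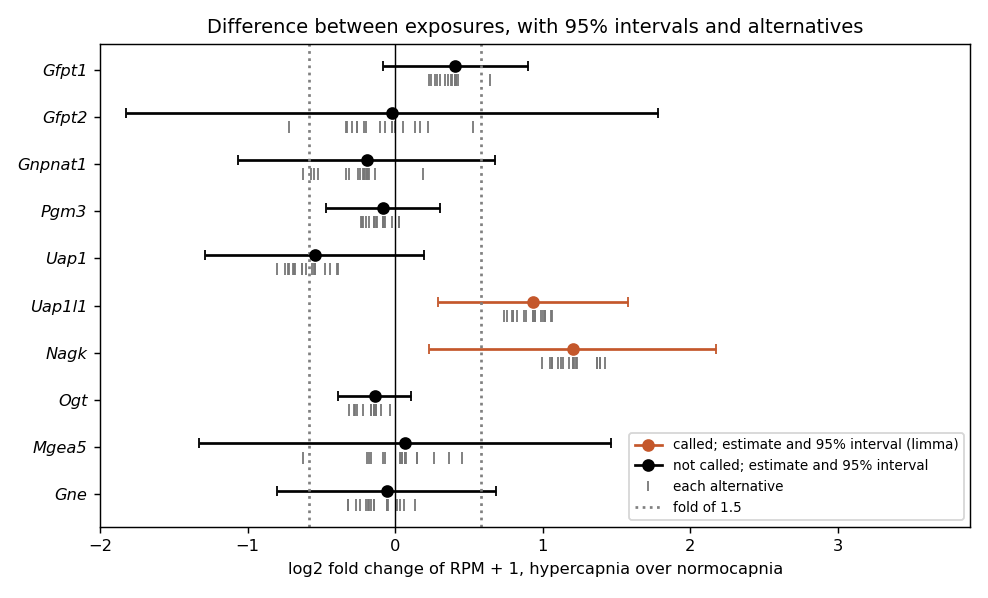
Log2 fold change of RPM + 1, hypercapnia over normocapnia, for each of the 10 genes, with the limma estimate and its 95% interval (points and bars; orange where called) and the value under each of the 18 alternatives (ticks). The intervals of Uap1l1 (0.29 to 1.58) and Nagk (0.23 to 2.18) lie above 0, and the ticks of Gfpt2, Gnpnat1, Pgm3, Mgea5 and Gne fall on both sides of 0.

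Ogt, the transferase, is encoded on the X chromosome and was among the steadiest members: 102, 122 and 94.1 RPM in normocapnia and 88.1, 96.8, 101 and 97.0 RPM in hypercapnia. The whole range over 7 libraries was 1.38-fold, with NC2 highest and HC1 lowest, both of them libraries with Xist. The groups overlapped (105.8 ± 14.3 RPM against 95.7 ± 5.41 RPM; log2 fold change -0.14, 95% interval -0.39 to 0.11, limma p 0.219). The interval lies within the fold threshold of 1.5 in both directions, and the value stayed below 0 in all 18 alternatives (-0.31 to -0.03), none of which called it. Among libraries with Xist, Ogt was lower in hypercapnia (log2 difference -0.27, 2 libraries against 2). Among those without Xist it was slightly higher (0.07, 2 libraries against NC3 alone).

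Mgea5, the hydrolase that removes O-GlcNAc, stood at 108, 96.1 and 23.6 RPM in normocapnia and at 71.4, 69.3, 69.2 and 55.4 RPM in hypercapnia. Hypercapnia lay between NC3 and the other 2 normocapnia libraries, so that the group difference was small with a wide interval (log2 fold change 0.07, 95% interval -1.33 to 1.46; limma p 0.909). Without NC3 Mgea5 was called lower (log2 fold change -0.62, limma p 0.00622), where 2.57% of all genes were called. Among libraries with Xist it was lower in hypercapnia (log2 difference -0.53, 2 libraries against 2), and among those without Xist both hypercapnia libraries were above NC3 (1.354). The 2 effects differed by -1.89 (SE 0.22; limma interaction term, adjusted p 0.0511), again with NC3 as the lone normocapnia library without Xist.

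The ratio of Ogt to Mgea5 was 0.937, 1.27 and 3.99 in normocapnia and 1.23, 1.4, 1.46 and 1.75 in hypercapnia. Hypercapnia fell inside the normocapnia range, and NC3 set its upper end.

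Gne, the enzyme that turns UDP-GlcNAc toward sialic acid, stood at 25.6, 15.9 and 30.4 RPM in normocapnia and at 17.1, 18.3, 29.1 and 26.7 RPM in hypercapnia. The groups overlapped (log2 fold change -0.06, 95% interval -0.80 to 0.69). Within each exposure the libraries without Xist were above those with it, and with Xist as a covariate the log2 fold change was -0.18 (SE 0.18, limma p 0.376).

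Genes around the pathway were counted in 5 lists, with calls from the main limma fit only. How these calls hold in the alternatives was not examined. Beside these counts, 1.43% of all genes were called higher and 1.14% lower, or 3.07% and 2.47% of those averaging 10 RPM or more. Beside the medians of the lists, which are for the values as deposited, that of genes averaging 1 RPM or more was 0.161. After median-of-ratios scaling this background was 0.045 and after quantile normalization -0.006, and the medians of the lists were not computed there. Of 9 genes that supply its precursors, 2 rose and none fell, with a median log2 fold change of 0.33: hexokinases Hk2 (0.68, SE 0.09) and Hk3 (1.59, SE 0.38), which trap glucose. A further hexokinase, Hk1 (-0.07, SE 0.38), the glucose carriers Slc2a1 (0.16, SE 0.28) and Slc2a3 (0.43, SE 0.30), the isomerase Gpi1 (0.43, SE 0.40), the glutamine carrier Slc1a5 (-0.09, SE 0.41) and glutamine synthetase Glul (0.26, SE 0.54) did not pass the test. Of 13 genes that recycle amino sugars, 1 rose, the lysosomal hexosaminidase subunit Hexa (1.04, SE 0.20), with a median of 0.55. The deacetylase Amdhd2, which opens the way back to glycolysis, had a positive value that did not pass (0.55, SE 0.36).

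Of 5 genes that carry sialic acid onward from Gne, 1 rose, the hydroxylase Cmah, from 4.73, 2.87 and 2.55 RPM in normocapnia to 5.14, 5.93, 8.06 and 15.4 RPM in hypercapnia (log2 fold change 1.06, SE 0.39), with a median of 0.22. Of 18 users and carriers of UDP-GlcNAc, 2 rose and none fell, with a median of 0.43. Mgat5, which branches N-glycans, was among them and stood at 58.7, 81.6 and 47.8 RPM against 109, 124, 107 and 93.4 RPM (0.81, SE 0.20). Among other branching enzymes, the groups did not overlap for Mgat2, with higher values in hypercapnia (log2 fold change 0.93, SE 0.48, limma p 0.106), or for Mgat4a, with lower values (-0.79, SE 0.32, p 0.0536), and neither passed the test. Of 7 partners of OGT, 1 fell, Trak1, an adaptor of mitochondrial transport, from 41.6, 52.5 and 38.9 RPM to 27.5, 34.2, 32.1 and 21.4 RPM (-0.62, SE 0.19), and none rose, with a median of 0.14. None of the called genes of these lists passed adjustment over all genes (limma adjusted p 0.492 to 0.915). The values of Hk2, Hk3 and Hexa were known when the lists were written.

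**Figure D4:**
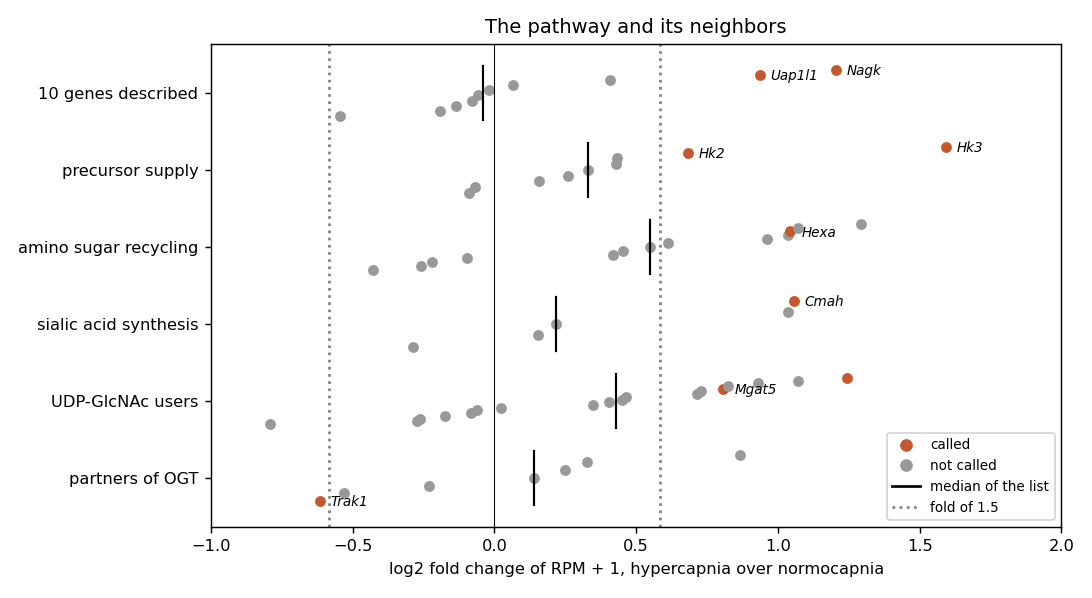
Log2 fold change of RPM + 1, hypercapnia over normocapnia, for the 10 genes and for 5 lists around them, with 1 point per gene (orange where called, with the genes described in the text named), a black line at each list's median and dotted lines at a fold of 1.5. The medians run from -0.04 for the 10 genes to 0.55 for amino sugar recycling, and called genes are higher in hypercapnia except Trak1.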

How the data were processed

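RNA from sorted Pax7-GFP cells was converted to Ion AmpliSeq Transcriptome Mouse libraries and sequenced on an Ion GeneStudio S5 Plus system. The authors deposited 1 table of RPM (reads scaled to a fixed total per library) for 7 libraries. The Transcriptome Analysis Console is named in the submitters' processing notes. For the aligner and the build, the entry is: not given in the sources used here. Of 23930 genes, 2443 are at 0 in all libraries, and no filter on low values was found. Whole reads were recovered from the steps of the RPM values (within 0.05 reads for 100% of values), giving 14527445 to 23388710 reads per library. A floor of 3 reads corresponds to 0.128 to 0.207 RPM, for counting error only.

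Groups came from the sample titles. Differences were fitted in R 4.3.3 by limma 3.58.1, taking log2(RPM + 1) of the whole unfiltered table, 3 against 4 libraries. The fit was tested on simulated data. Genes were called at an unadjusted p under 0.05 and a fold above 1.5, with Benjamini-Hochberg adjusted values beside them. The members and lists were chosen with earlier results of these data known. Named were all 10 members, the called genes of the lists, and for each called member the 3 genes of at least 10 RPM with the closest centered log2 profile. Some genes that this rule selects are counted but not reported here by name. Hk1, Slc2a1, Slc2a3, Gpi1, Slc1a5, Glul, Amdhd2, Mgat2, Mgat4a, Lyz2, Cd68, Cd163, C1qa, C1qb and C1qc were named after their values were seen. Listed genes without a row of that symbol (1 in sialic acid synthesis, 1 lymphocyte marker and an older symbol of Adgre1) are not analysed here. Alternatives were pseudocounts of 0.1 and 5 RPM, a filter at 1 RPM, median-of-ratios and quantile scaling, edgeR 4.0.16 (TMM, quasi-likelihood), DESeq2 1.42.0, a prior following the mean, Xist as a covariate, a replicate block and leaving out each library. Values within the libraries with and without Xist, and their interaction term, were added after the data were seen.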

Additional observations from a re-analysis of the deposited data

Results flagged for a closer look

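Mgea5 in hypercapnia had 1 library apart from the rest. HC4 stood at 55.4 RPM and the other 3 libraries between 69.2 and 71.4 RPM, a gap of 0.875 of the range of log2(RPM + 1), above Dixon's critical value for 4 samples. Of the 10 genes examined in this way 1 was past that value, and chance gives about 1 in 20.

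The exposure effect on Gfpt2 differed between libraries with Xist and those without by -3.38 on the log2 scale (SE 0.49, limma interaction term, p 0.00361, adjusted p 0.0694), and that on Mgea5 by -1.89 (SE 0.22, p 0.00171, adjusted p 0.0511). In both genes hypercapnia was below normocapnia among the libraries with Xist (2 against 2) and above it among those without (2 against 1). Neither passed adjustment over all genes, 21.2% of all genes passed an unadjusted p of 0.05 in this fit, and NC3 alone stands for normocapnia without Xist. Its own standing apart and sex cannot be told apart here.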

How the results depend on the processing

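Uap1l1 and Nagk stayed higher in all 18 alternatives (log2 fold change 0.74 to 1.06 and 0.99 to 1.42), Gfpt1 stayed above 0 (0.23 to 0.64) and Uap1 and Ogt below 0 (-0.80 to -0.39 and -0.31 to -0.03). Uap1l1 and Nagk were each called in 14 of the 18. The count of called members, 2 in the main analysis, was 0 with median-of-ratios scaling, 1 in edgeR, 1 in edgeR without a filter (Uap1l1 at 0.83, p 0.0589) and 1 in DESeq2, and 1 to 3 on leaving out each library. The cause was not tested. Their median (-0.04) was -0.23 in edgeR, -0.21 in edgeR without a filter and -0.27 in DESeq2, and -0.12 to 0.13 on leaving out each library. The count over all genes (615) was 1049 in edgeR without a filter, 1304 in DESeq2 and 1316 with Xist as a covariate, and 376 to 1990 on leaving out each library: 1990 without NC1, 1205 without NC2, 385 without HC1 and 376 without HC2. Genes averaging 1 RPM or more had a median of 0.161 as deposited, 0.045 after median-of-ratios scaling and -0.006 after quantiles were matched, and of the calls 55.8%, 51.8% and 48.5% were higher, against 36.7% in edgeR.

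Signs turned for 5 members, none of them called in the main analysis. Gfpt2 (-0.02) was 0.055 with a pseudocount of 0.1 RPM and 0.002 with Xist as a covariate, and -0.72 to 0.53 on leaving out each library. Mgea5 (0.07) was -0.07 with median-of-ratios scaling, -0.082 with quantile normalization, -0.16 in edgeR, -0.175 in edgeR without a filter, -0.19 in DESeq2, and -0.62 to 0.455 on leaving out each library. On leaving out each library Gne ran from -0.32 to 0.13, Gnpnat1 from -0.55 to 0.19 and Pgm3 from -0.145 to 0.025. The replicate numbers did not pair the libraries: deviations from the group means correlated at -0.349, 0.503 and -0.044 for numbers 1, 2 and 3 over 12504 genes, and NC1 correlated best with HC3 (0.388). With the replicate number as a block (NC1 to NC3 with HC1 to HC3) 598 genes and 2 members were called, the median of the members was -0.06, and Pgm3 was 0.025. Gfpt2, at 17 to 262 reads, is the member most limited by depth.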
